A study of Homo sapiens with 2 samples.

Results

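CC and CXC chemokines are small secreted proteins that direct the movement of leukocytes. The 10 genes described here are CCL2, CCL5, CCL11, CCL20, CXCL2, CXCL3, CXCL5, CXCL8, CXCL10 and CXCL16, taken by symbol through the array's probe-to-gene table. Each of the 10 had 1 probe set, out of 14884 genes named on the array. The cells were A549, an established human lung adenocarcinoma line, kept for 4 h in stretch culture or for 4 h in static culture, with 1 array for each. The sources used here do not name the stretch device, its amplitude or frequency, or how many cultures gave each RNA. The title of the stretched sample writes the line as A594, whereas its source name reads A549. The title of the series names tumor necrosis factor-alpha and invasion, and the members are genes that this cytokine is known to induce in epithelial cells, or relatives of such genes.

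Chemokines bind G protein-coupled receptors on the cells that they attract. CC chemokines such as CCL2 and CCL20 act mainly on monocytes, lymphocytes and dendritic cells, whereas the CXC chemokines with a Glu-Leu-Arg motif, among them CXCL2, CXCL3, CXCL5 and CXCL8, act on neutrophils through CXCR2. In epithelial cells the promoters of many chemokine genes bind NF-κB, a factor that is held in the cytoplasm until TNF, interleukin 1 or another signal releases it, and AP-1 acts beside it at CXCL8. CXCL10 and its relatives are best known as interferon-induced genes.

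Promoter sequences are shown first, because several of the members share a κB element and yet differed in signal on these arrays. The RefSeq promoter table of GRCh38.p14 held 6 of the 10 members, as windows of 300 bases from 250 before the transcript start to 50 after it. CCL2, CCL5, CCL11 and CXCL16 were not matched. Both strands were searched for the κB consensus of NF-κB, the κB word GGAATTTCC, the AP-1 motif TGANTCA, the interferon-type motif GAAANNGAAA and the TATA element TATAAA. Capitals mark every match, and the κB word can lie inside a consensus match. The first 2 sequences belong to a CC and a CXC member with large differences, and the next 2 to members with a signal above background and a small difference.
CCL20 (chr2:227813592-227813891, plus strand): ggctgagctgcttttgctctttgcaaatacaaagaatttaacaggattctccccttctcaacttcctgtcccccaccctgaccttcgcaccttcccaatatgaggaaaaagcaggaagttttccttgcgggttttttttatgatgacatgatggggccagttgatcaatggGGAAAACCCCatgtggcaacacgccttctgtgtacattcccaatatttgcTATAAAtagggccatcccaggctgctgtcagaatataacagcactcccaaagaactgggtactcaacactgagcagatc
CXCL5 (chr4:73998628-73998927, minus strand): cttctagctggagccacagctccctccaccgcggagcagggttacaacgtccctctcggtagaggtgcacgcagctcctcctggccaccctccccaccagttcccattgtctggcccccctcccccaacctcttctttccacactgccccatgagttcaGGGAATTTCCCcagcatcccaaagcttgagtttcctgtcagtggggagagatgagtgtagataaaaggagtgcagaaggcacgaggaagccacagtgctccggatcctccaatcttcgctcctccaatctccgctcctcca
CXCL8 (chr4:73740319-73740618, plus strand): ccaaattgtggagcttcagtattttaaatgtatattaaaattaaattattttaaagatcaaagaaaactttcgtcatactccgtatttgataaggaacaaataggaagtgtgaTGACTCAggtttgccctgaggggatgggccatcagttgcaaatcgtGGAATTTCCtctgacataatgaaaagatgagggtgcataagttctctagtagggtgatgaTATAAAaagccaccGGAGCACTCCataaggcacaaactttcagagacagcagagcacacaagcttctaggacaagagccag
CXCL2 (chr4:74099146-74099445, minus strand): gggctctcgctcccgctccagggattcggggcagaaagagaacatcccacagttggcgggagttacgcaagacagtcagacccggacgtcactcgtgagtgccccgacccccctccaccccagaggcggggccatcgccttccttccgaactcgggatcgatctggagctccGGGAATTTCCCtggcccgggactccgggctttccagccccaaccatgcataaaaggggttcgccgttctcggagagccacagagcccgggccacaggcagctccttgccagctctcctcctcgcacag

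The κB word GGAATTTCC was present on one strand or the other in 5 of the 6 member promoters, against 0.461% of all 35116 promoters of the table. CCL20 was the promoter without it. Its κB consensus match began 79 bases before the start. The consensus was matched in 6 of the 6, against 14.0% of all promoters. As the members are known TNF-induced genes or their relatives, high κB shares could be foreseen. CXCL2 and CXCL3 share the bases on both sides of the word, so their matches are not independent. In CXCL5 the κB word began 90 bases before the start, in CXCL8 91 and in CXCL2 77. The AP-1 motif was found in CXCL8 alone, 137 bases before the start, against 7.71% of all promoters. The TATA element was found in CCL20 and CXCL8, against 11.5% of all promoters. The capitals nearest the start of CXCL8, after its TATA element, began 17 bases before the start and were its only match to the loose consensus. The κB word of CXCL8 lay outside that match, so CXCL8 counted among the 6 through this stretch alone. The 2 remaining promoters are shown over 35 bases at the κB word, which CXCL10 carries in reverse.
CXCL3 (chr4:74038746-74038780, minus strand): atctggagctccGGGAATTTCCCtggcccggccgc
CXCL10 (chr4:76023652-76023686, minus strand): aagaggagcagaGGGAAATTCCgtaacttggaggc

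CXCL10 also held a second consensus match 122 bases before the start and the interferon-type motif 221 bases before it, a motif found in 3.57% of all promoters. These matches describe letters only, and no binding was measured.

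Values are RMA values on the log2 scale, so that a difference of 1 is 2-fold, and differences are stretch minus static. No value has a replicate, no p-value can be given, and the number of arrays limits the precision. Across 53617 probe sets the arrays correlated with r = 0.946, a value across probe sets that are not replicates. A gene was counted when its value on the brighter array was at least 2.52, the median over both arrays, and 10981 genes met this level filter. Among these the median difference was 0.20. A rough upper bound for background was set at 5.24, the 95th percentile of the signals of 19 genes of unrelated tissues. It rests on KRTAP5-1 and ZP3, and without these it was 4.12. Differences of the 19 genes lay between -0.82 and 0.63. Of 16 markers of the labelled epithelium 5 were measured. These were KRT18 (11.00 on the stretched and 10.29 on the static array), KRT7 (7.56 and 5.41), KRT8 (5.47 and 4.60), EPCAM (4.71 and 5.30) and KRT19 (3.78 and 3.77), the last below the bound on both arrays. Endothelial markers (6 of 8 measured) and fibroblast markers (3 of 11 measured) lay below the bound on both arrays. Their log2 values summed to 13.1 and 6.91 on the stretched array, against 14.9 and 7.55 on the static array. Such sums of log2 values are not a total signal. Of 15 listed leukocyte markers 8 were measured, and their log2 values summed to 30.3 on the stretched and 29.7 on the static array. Of these 8, CD68 (8.58 and 7.51) and CD14 (5.53 against 5.13) passed the bound on at least 1 array. LYZ, CD163 and S100A8 read 2.61 or less on both. The part of other cell types in the chemokine signals was not tested.

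CCL20, CCL2 and CXCL5 were the 3 chemokines with signals at least 1.5-fold higher under stretch, and all 3 were bright on the stretched array. At 1.5-fold, 3 of the 10 genes were higher, 1 was lower and 6 lay between, against 27.7% of all genes past the filter higher and 8.90% lower. At 2-fold the members gave the same counts, against 12.3% higher and 2.50% lower. The share of members that were at least 1.5-fold higher was thus near that of all genes. The median difference of the 10 genes was 0.04 and that of all genes past the filter was 0.20. Of the 10 genes, 9 passed the level filter and CXCL10 did not. The 6 genes above the background bound on at least 1 array held all 3 of the higher ones, against 41.0% higher and 4.66% lower among the 4547 genes that passed the same bound.

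**Figure D1:**
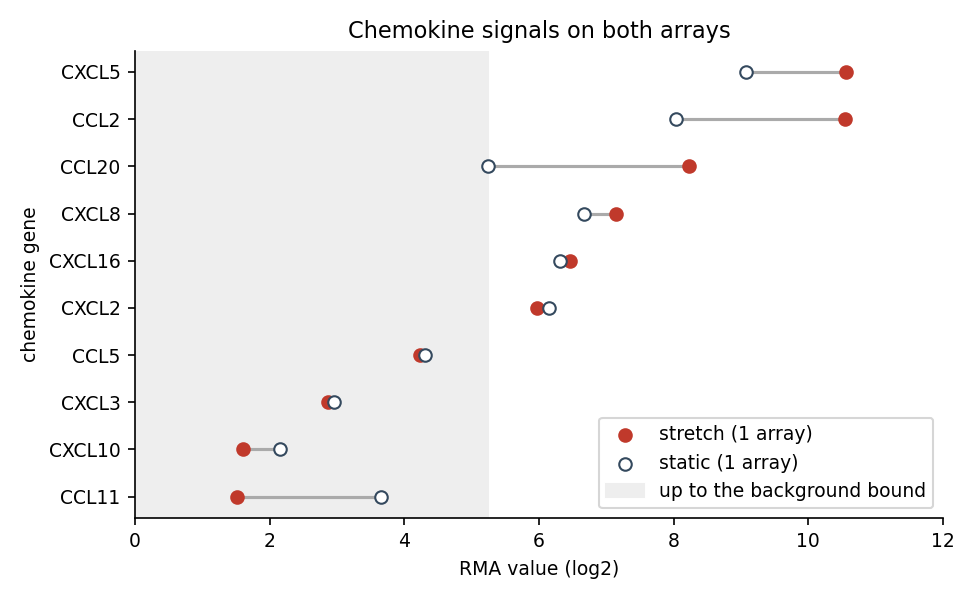
RMA values (log2, horizontal axis) of the 10 chemokine genes, with filled points for the stretched array, open points for the static array and grey shading up to the background bound of 5.24. CXCL5, CCL2 and CCL20 lie farthest right under stretch, at 10.57, 10.55 and 8.23, and 4 genes lie in the shading on both arrays.

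Among the CC ligands, CCL20 differed most. CCL20 attracts lymphocytes and dendritic cells through CCR6 and is made by mucosal epithelia. Its probe set (16891774) read 8.23 on the stretched array and 5.24 on the static array. The difference was 2.99, or 7.94-fold, the rank of 11 from the top among 10981 genes. The static value lay at the background bound, so the size of the fold is not firm. Among 1121 other genes whose mean signal was within 0.5 of that of CCL20, 1 had a difference as large.

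CCL2, the monocyte chemoattractant that acts through CCR2, was bright in both cultures. Its probe set (16833204) read 10.55 on the stretched array and 8.04 on the static array. The difference was 2.51, or 5.70-fold, which placed CCL2 at rank 39 from the top. Of 155 other genes with a mean signal within 0.5 of its own, 0 had a difference as large. The median difference of genes at that level was 0.24.

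The other CC ligands were dim on both arrays. CCL5, the T cell and monocyte attractant also called RANTES, read 4.23 on the stretched array and 4.31 on the static array (probe set 16843511), a difference of -0.08. CCL11, or eotaxin, which attracts eosinophils through CCR3, read 1.51 on the stretched array and 3.65 on the static array (probe set 16833218). Its difference was -2.14. The gene passed the level filter only through the static array, so its call counts for little. Both of its values lay below the background bound, also below the bound of 4.12. No second probe set was named for it.

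**Figure D2:**
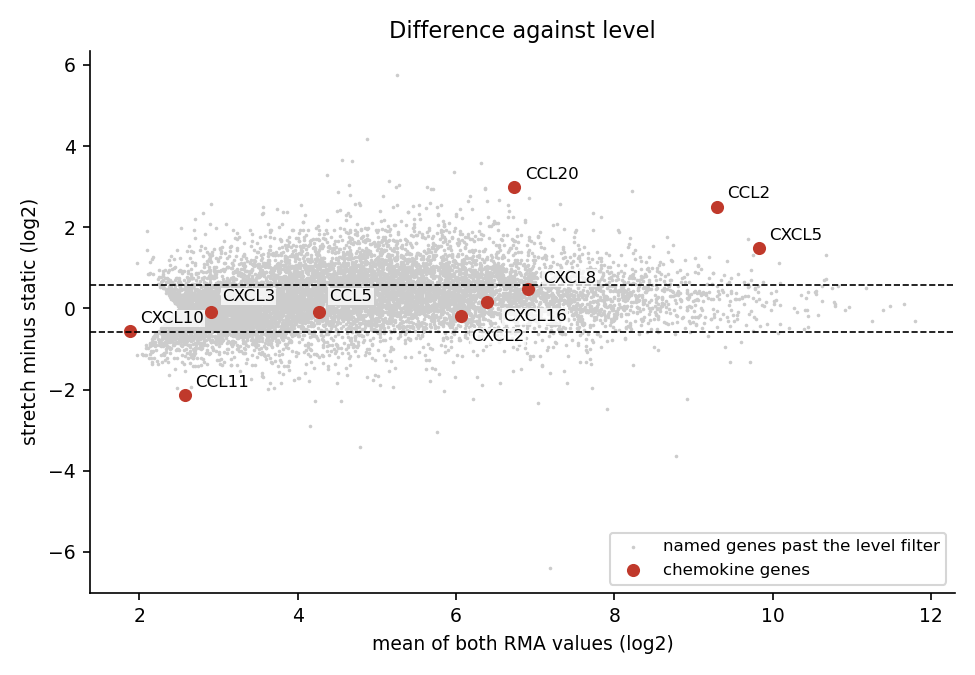
Difference between the stretched and the static array (log2, vertical axis) against the mean of both RMA values (log2, horizontal axis), with grey points for the 10981 genes past the level filter, red points for the chemokines and dashed lines at 1.5-fold. CCL20, CCL2 and CXCL5 lie at the upper edge of the grey points at their levels. CCL11 lies at the lower edge, both of its values being under the background bound, while the other 6 chemokines lie within the lines.

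Among the neutrophil attractants, CXCL5 had a large difference and CXCL8, CXCL2 and CXCL3 had small ones. CXCL5, an epithelial ligand of CXCR2, had the highest signal of the 10 genes under stretch. Its probe set (16976827) read 10.57 on the stretched array and 9.08 on the static array, a difference of 1.49 or 2.81-fold. This was rank 441 among all genes, but among 80 other genes of like level 1 had a difference as large. CXCL8, or interleukin 8, the ligand of CXCR1 and CXCR2, read 7.15 on the stretched array and 6.67 on the static array (probe set 16967771). Its difference of 0.48 (1.39-fold) was near the median of 0.36 for genes at its level, and it was -0.05 after centring on reference genes.

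CXCL2 and CXCL3, which also act through CXCR2, had slightly negative differences as deposited. CXCL2 read 5.97 on the stretched array and 6.15 on the static array (probe set 16976844), a difference of -0.18. Genes at its level had a median difference of 0.45, and 1364 of the 1567 others had a difference at least as high as that of CXCL2. CXCL3 read 2.87 on the stretched array and 2.95 on the static array (probe set 16976833), a difference of -0.08 within the background range. CXCL2 and CXCL3 are close paralogs of CXCL1, which is unnamed here, and the specificity of their probes could not be checked. The κB word printed above stood in the promoters of CXCL5 (1.49), CXCL8 (0.48), CXCL2 (-0.18), CXCL3 (-0.08) and CXCL10 (-0.56). CXCL3 and CXCL10 lay below the bound on both arrays. CCL20 (2.99) lacked the word, and the part of the κB element in these differences was not tested.

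CXCL10 and CXCL16 belong to neither group. CXCL10, which attracts activated T cells through CXCR3, read 1.60 on the stretched array and 2.16 on the static array (probe set 16977052). Its difference of -0.56 lay inside the spread of the 19 unrelated-tissue genes. The other CXCR3 ligands, CXCL9 (1.43 and 2.06) and CXCL11 (1.86 and 2.48), were as dim on the stretched and the static array and differed by -0.63 and -0.62. CXCL16, a membrane-bound ligand of CXCR6 that can be shed from the cell surface, read 6.46 on the stretched array and 6.31 on the static array (probe set 16840113). Its difference of 0.15 was below the median of 0.44 at its level and was negative, between -0.38 and -0.20, after quantile normalization, loess on level or centring on reference genes. Of its sheddases, ADAM10 read 8.48 on the stretched and 8.47 on the static array, and ADAM17 8.12 and 7.29.

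Many CXC genes of chromosome 4 and CC genes of chromosome 17 lie in clusters, and genes next to each other in order differed in sign and size. The order covers all listed and measured ligand genes of each chromosome, so genes side by side, such as CXCL16 and CCL2, need not share a cluster. Of the ligand genes on these chromosomes only CXCL8, CXCL5, CXCL2, CCL2 and CXCL16 reached the background bound on either array. The signs of the others count for little. In RefSeq order, CXCL8 is followed among the measured ligands by CXCL6 (-0.67), PF4 (-0.69) and PPBP (-0.25), and then by CXCL5, CXCL3 and CXCL2. Of 11 listed and measured ligand genes of chromosome 4, CXCL5 alone was at least 1.5-fold higher. CXCL6, the closest relative of CXCL5, read 1.19 on the stretched and 1.86 on the static array. The 12 listed and measured ligand genes of chromosome 17 include the CXC gene CXCL16. Among them CCL2 lies next to CCL7 (-0.20) and CCL11 (-2.14), and CCL8 (-0.27) follows. CCL7 and CCL8, which like CCL2 are monocyte chemoattractant proteins, read 1.60 and 1.13 on the stretched array, against 1.80 and 1.40 on the static array. CCL3 (0.74) was the other of these 12 genes past 1.5-fold upward, with 2.83 on the stretched and 2.09 on the static array, both within the background range.

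**Figure D3:**
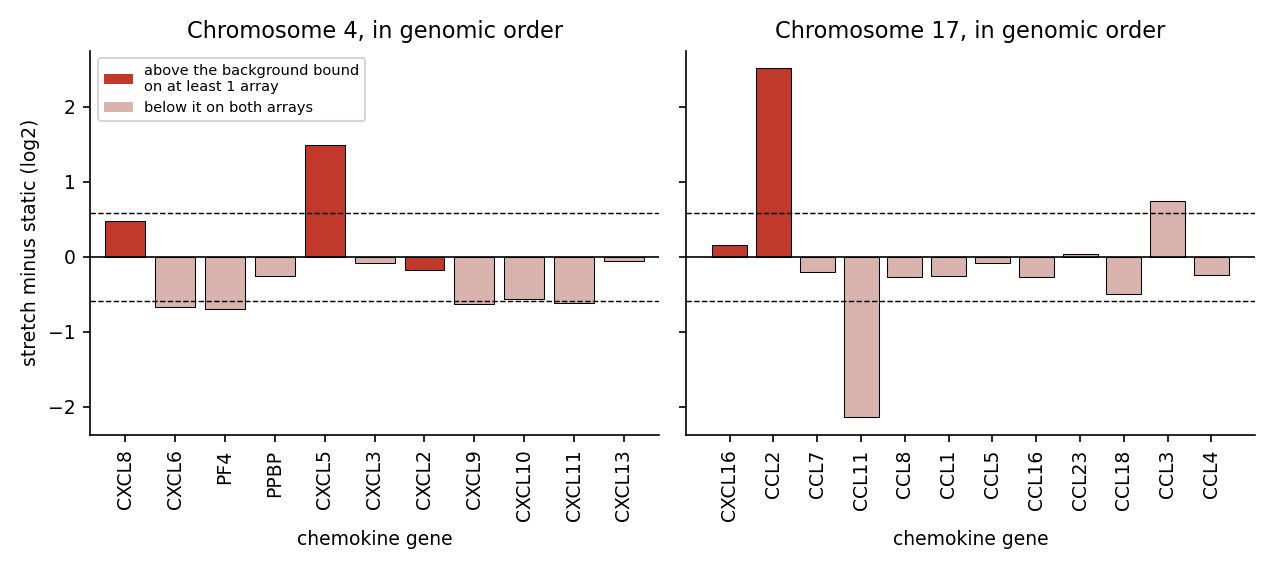
Difference between the stretched and the static array (log2, vertical axis) of the 11 listed and measured chemokine genes of chromosome 4 and the 12 of chromosome 17, placed side by side in genomic order and not to scale in distance. Genes side by side need not share a cluster. Dark bars mark genes above the background bound on at least 1 array and pale bars genes below it on both. CXCL5 (1.49) and CCL2 (2.51) are the 2 dark bars past the dashed line of 1.5-fold.

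The other ligands were close to background. Of 37 listed, 30 were measured, and MIF, a cytokine with chemokine-like activity, was the 1 above the bound, at 9.08 on the stretched and 9.35 on the static array. The remaining 29 read at most 3.89 under stretch and 4.58 in static culture. Of the 30, the level filter kept 12, of which 2 passed 1.5-fold upward, CCL3 (0.74) and CCL26 (0.74), and 2 downward, CCL17 (-0.70) and PF4 (-0.69). CCL3, CCL26 and CCL17 reached the filter only on the array where they were higher, so these counts support nothing. CXCL6, CXCL9 and CXCL11 lay below the filter. The differences of CCL1, CCL4, CCL7, CCL8, CCL16, CCL18, CCL19, CCL21, CCL22, CCL23, CCL24, CCL25, CCL27, CCL28, CXCL12, CXCL13, CXCL14, CXCL17, PPBP, XCL1, XCL2 and CX3CL1 lay between -0.50 and 0.24. The median over the 30 genes was -0.26.

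Receptors for these ligands were at background. Of 23 receptor genes on the list 20 were measured, and all 20 read below the bound on both arrays, with 3.55 under stretch and 3.45 in static culture as the highest values, both of CCR7. Of the 7 past the level filter, 0 reached 1.5-fold in either direction as deposited, against 27.7% higher and 8.90% lower of all genes. After centring on reference genes 4 were lower by that much, against 32.3% of all genes. ACKR5, which is not on the list and was noticed after its values were seen, read 2.15 on the stretched and 2.92 on the static array (-0.77), also below the bound. CCR6, the receptor of CCL20, read 1.89 on the stretched and 1.90 on the static array. CCR2, the receptor of CCL2, read 2.22 and 1.75, and CXCR2 2.05 and 2.51.

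Several genes of the NF-κB system had higher values on the stretched array, most of them from static values below the background bound of 5.24. Of 11 measured genes (20 listed), 7 passed 1.5-fold upward and 1 downward, against 27.7% and 8.90% of all genes past the filter. All but CYLD reached the background bound on at least 1 array, and of all genes that did so 41.0% were higher. The median was 0.77, against 0.45 for all genes that reached the bound and 0.53 for the reference genes. It was 0.40 after quantile normalization, 0.48 after loess on level and 0.24 after centring on reference genes. MAP3K14, a kinase of the non-canonical pathway, read 6.17 on the stretched and 3.12 on the static array (3.05). NFKB2, of the same pathway, read 6.25 and 3.84 (2.41). Both static values lay below the bound, as did those of TNIP1 (4.91) and RELB (4.99, difference 0.65), so these sizes are not firm. CYLD (0.77) lay below it on both arrays. Of the 7 higher genes, NFKB1 and RELA alone were above it on both arrays, so at this bound the count of 7 says little. Without KRTAP5-1 and ZP3 the bound was 4.12, and TNIP1, RELB and CYLD (5.09 and 4.32) were then above it on both arrays too. The static values of MAP3K14 and NFKB2 lay below 4.12 as well. TNIP1, an inhibitor (1.60), NFKB1 (1.25) and RELA (0.87) were also higher, and the co-regulator BCL3 was lower (-0.79). After quantile normalization, loess on level or centring on reference genes, 4 genes were higher by 1.5-fold, and RELA was no longer among them. The shares of all genes past the filter that were higher were then 16.5%, 18.5% and 9.26%.

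The AP-1, IRF and STAT genes differed in both directions. Of 13 measured genes (20 listed), 6 passed 1.5-fold upward and 2 downward, against 27.7% and 8.90% of all genes past the filter. After centring on reference genes the counts were 3 and 5, against 9.26% and 32.3% of all genes. The median was 0.43, and -0.10 after that centring. FOSL1 (1.96), JUN (1.53), FOSL2 (1.32) and IRF1 (0.93, below the bound on both arrays) were higher. The static value of JUN (5.05) and the stretched value of FOS (5.11) also lay below the bound. FOS (-2.22) and FOSB (-1.02) were lower, and the second probe set of FOSB gave -0.20.

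Of the cytokines and receptors that drive chemokine genes, TNF itself was dim, at 3.27 on the stretched and 3.46 on the static array. This list kept 13 genes at the level filter (30 listed, 15 measured), of which 7 passed 1.5-fold upward and 1 downward, against 27.7% and 8.90% of all genes past the filter. After centring on reference genes the counts were 4 and 4, against 9.26% and 32.3% of all genes. IL11 read 6.46 on the stretched and 3.95 on the static array (2.51), the static value below the bound, and IL18 read 7.86 and 6.37 (1.49). LIF (1.26), CSF1 and IFNGR1 (1.10 each, from static values below the bound) and IL1RAP, the shared subunit of interleukin 1 receptors (1.33, below the bound on both arrays), were higher as well. IL1A, IL1B, IL6 and both TNF receptors are unnamed here. Of 9 measured genes of mRNA decay and stability (17 listed), some of which act on AU-rich messages, 4 were at least 1.5-fold higher and 0 lower. All 9 reached the bound on at least 1 array, and their share was near the 41.0% of all such genes. The 4 genes were ZC3H12C (1.66), TIA1 (1.01), RC3H2 (0.80) and KHSRP (0.79), of which ZC3H12C alone kept 1.5-fold after centring on reference genes. The static values of ZC3H12C (3.64) and TIA1 (5.09) lay below the bound.

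**Figure D4:**
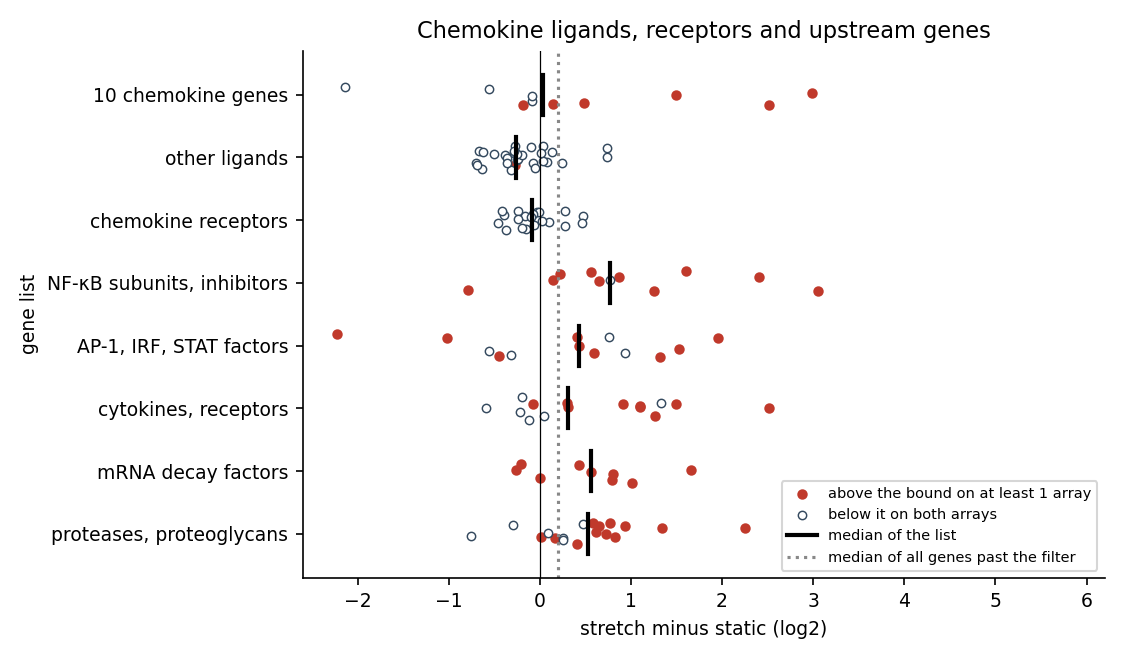
Difference between the stretched and the static array (log2, horizontal axis) for each measured gene of 8 lists, with filled points for genes above the background bound on at least 1 array, open points for the others, black bars for list medians and a dotted line at 0.20, the median of all genes past the filter. The 10 chemokines spread from -2.14 to 2.99 around a median of 0.04, while the NF-κB genes have a median of 0.77.

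The signals of CCL20 and CCL2 had few close matches on the array. The genes nearest to CCL20, by Euclidean distance over the 2 arrays, were CTPS1 (8.27 under stretch and 5.56 in static culture, distance 0.32) and ABHD4 (distance 0.34). Those nearest to CCL2 were TFPI2 (10.53 and 8.83, distance 0.79) and EZR (distance 0.90). CXCL5 lay near EEF2 (10.62 and 9.14, distance 0.08) and IGFBP4 (distance 0.16). Within a distance of 0.1, there were 0 genes for CCL20, 0 for CCL2 and 1 for CXCL5. There were 20 for CXCL8, with MT2A and ANAPC5 nearest, 15 for CXCL2, with EEA1 and SFT2D1, and 31 for CXCL16, with TRAF3 and LPAR1. With 2 arrays such likeness says only that level and difference were alike.

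The 3 higher chemokines kept their side of 1.5-fold under each of 4 other scalings. CCL20 ranged from 2.46 to 3.09, CCL2 from 1.98 to 2.61 and CXCL5 from 0.96 to 1.59, with centring on reference genes lowest and median centring highest. CCL11 stayed between -2.67 and -2.02. The sign of CXCL8, CXCL16, CCL5 and CXCL3 depended on the scaling. CXCL2 was negative throughout, between -0.71 and -0.08, and passed 1.5-fold downward after quantile normalization and after centring on reference genes.

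**Figure D5:**
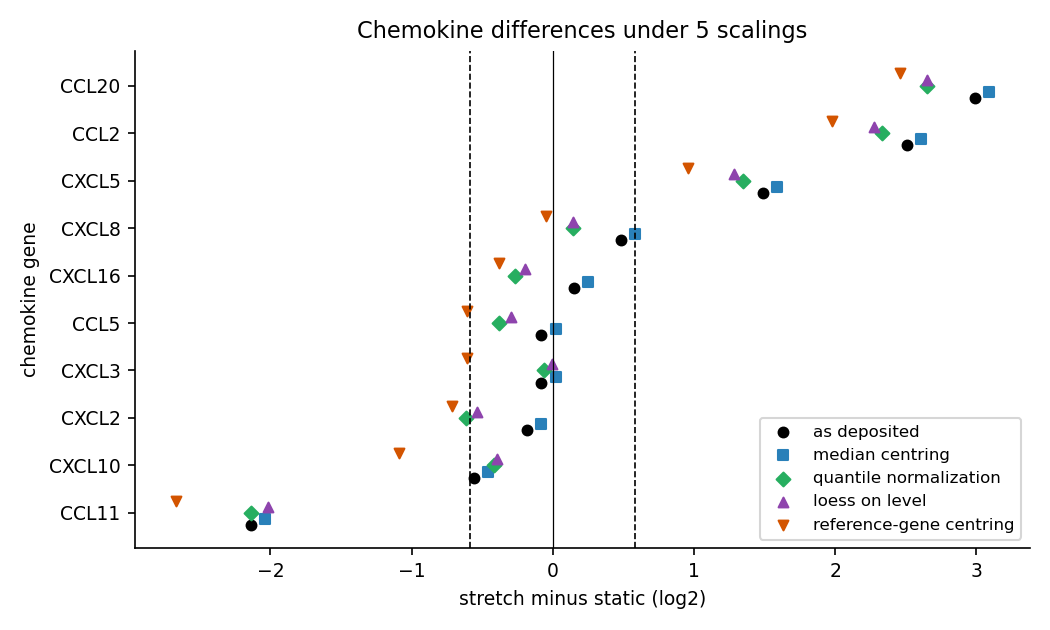
Difference between the stretched and the static array (log2, horizontal axis) of the 10 chemokine genes as deposited and under 4 other scalings, with dashed lines at 1.5-fold. Every point of CCL20, CCL2 and CXCL5 lies right of the upper line, and the lowest of these is CXCL5 at 0.96 after centring on reference genes.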

How the data were processed

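RNA of A549 cells was measured on Affymetrix arrays, 1 for stretch and 1 for static culture, grouped by source name. The deposited values are on the log2 scale, as read from their range (0.60 to 12.70). Per the submitters' processing notes they are RMA values. Software, chip definition and genome build are not given in the sources used here. Both arrays have different medians (2.47 and 2.57 for stretch and static), so how they were normalized to each other is unknown.

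The platform table names 1 gene for each of 16098 probe sets, several for 0, and leaves 37519 unnamed here. All 16098 gene identifiers matched RefSeq (GRCh38.p14). A gene was represented by its probe set with the highest mean. All 10 members have 1 probe set, so choosing probe sets could not alter them. Differences were counted at 1.5-fold and 2-fold without a test. Members and lists were chosen with earlier results of these data known. Named genes were all members, other ligands, up to 6 genes per list past 1.5-fold by size, and the 2 nearest genes of each member above the bound. Others named were chosen after their values were seen. Alternatives were 4 scalings (loess span 0.3), other level filters and other summaries. The counting steps were tested on simulated data. Python 3.11.15, numpy 2.4.6, pandas 2.3.3 and statsmodels 0.14.6 were used.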

Additional observations from a re-analysis of the deposited data

How the results depend on the processing

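No paired analysis was possible because there is 1 array per condition, and no replicate could be left out. Averaging probe sets altered nothing, since each chemokine has 1. Over the scalings, filters and summaries tried, the count of chemokines at least 1.5-fold higher stayed at 3. Of all genes past the filter, between 9.26% (reference-gene centring) and 32.9% (median centring) were higher over the scalings. The count of lower chemokines was 1 as deposited, against 8.90% of all genes. It was 2 after quantile normalization, against 14.1%, and 5 after centring on reference genes, against 32.3%. These counts are over all 10 chemokines, whereas the shares are of genes past the level filter. The 5 include CXCL10, which did not pass that filter. The count of lower chemokines was 0 when the level filter was raised to the upper quartile or to the background bound. It was also 0 at that bound without KRTAP5-1 and ZP3, a setting chosen after seeing the data. At these raised filters 4.66% to 5.84% of all genes were lower. After quantile normalization CXCL2 was at -0.615 and CXCL16 at -0.27, and after loess CXCL16 was at -0.20. After median centring CCL5 and CXCL3 were each at 0.02. Centring on reference genes lowered each difference by 0.53, the median of 13 measured reference genes (26 listed), whose own differences ran from -0.57 to 1.72. It put CCL5 and CXCL3 at -0.61, CXCL2 at -0.71, CXCL8 at -0.05, CXCL10 at -1.09 and CXCL16 at -0.38. The median of the 10 chemokines was 0.135 after median centring, -0.165 after quantile normalization, -0.10 after loess and -0.495 after centring on reference genes, and the medians of all genes past the filter were 0.30, -0.01, 0.04 and -0.33. It was 0.15 over the 9 genes past the level filter, 0.48 over 7 at the upper quartile, 0.985 over 6 at the background bound and 0.48 over 7 at that bound without KRTAP5-1 and ZP3. The mean of the 10 was 0.458. These filters remove dim genes, so they end the lower count through CCL11. Of all genes past 1.5-fold, the higher ones made up 75.7% as deposited, 83.7% after median centring, 53.8% after quantile normalization, 60.3% after loess and 22.3% after centring on reference genes. Signal over background limits CCL5, CCL11, CXCL3 and CXCL10, which lay below the bound on both arrays.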

Other observations

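Genes that present or cut chemokines at the cell surface were also measured. Heparan sulfate chains on proteoglycans hold secreted chemokines near the cells that release them. The level filter kept 16 such genes and proteases (22 listed, 18 measured), of which 8 passed 1.5-fold upward and 0 downward, against 27.7% and 8.90% of all genes past the filter and 41.0% and 4.66% of those above the background bound. Among 13 reference genes 6 were higher and 0 lower. SDC4, a syndecan of focal adhesions that carries heparan sulfate, read 8.95 on the stretched and 6.70 on the static array, a difference of 2.25. NDST1, which sulfates the chains, read 6.70 and 5.36 (1.34), and EXT1, which extends them, read 8.34 and 7.57 (0.77). GPC1 (0.93) and CTSB (0.73) were higher too, from static values of 4.79 and 4.54, below the background bound. The second probe set of GPC1 gave 0.31. After centring on reference genes 2 genes of this list were at least 1.5-fold higher, SDC4 and NDST1, and 1 was lower. The shares of all genes were then 9.26% higher and 32.3% lower. After quantile normalization 2 of the list were higher and after loess 3, with 0 lower in both. Of all genes, 16.5% were higher and 14.1% lower after quantile normalization, and 18.5% and 12.2% after loess.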
